A study of Homo sapiens with 12 samples.

Results

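This comparison set CNBP-knockout HEK293 cells against wild-type HEK293 cells, both given harringtonine and cycloheximide before ribosome profiling. HEK293 is an established human embryonic kidney cell line. It used 4 of the 12 samples of the study: 1 library labelled CNBP-KO_HRN_CHX, made after CRISPR-Cas9 knockout of CNBP, and 3 labelled Wildtype_HRN_CHX. The other samples, 3 knockout and 5 wild-type libraries with cycloheximide alone, are used only beside the harringtonine values. All groups share the cell line and received cycloheximide. How many knockout clones were used is not stated in the labels, so a clone and the knockout cannot be told apart. Nothing says that the wild-type libraries came from separate cultures. The members were chosen by their labels, and a gene's value was log2 of knockout over wild-type density, centred on the median of the 12091 genes with a density above 0 in all 4 groups.

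Ribosome profiling sequences the stretches of mRNA that ribosomes shield from nuclease. Harringtonine halts ribosomes that have just joined at a start codon, while ribosomes further along the mRNA can finish and leave, so footprints gather at start sites. Cycloheximide holds ribosomes in place all along the coding sequence. CNBP is a small protein of CCHC zinc knuckles that binds G-rich RNA, and the study concerned its part in translating mRNAs with such elements in their coding sequences.

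The deposited table gave 1 density per gene and group, a footprint level scaled to transcript length. It holds no value per sample, so no spread between replicates could be computed and no test was run. Intervals below are 95% counting intervals on estimated reads, which leave out the spread between cultures. The densities corresponded to about 400913 reads in the knockout and 1133809 in wild type. Genes with at least 100 reads over both groups, 1532 in all, are called well counted. They had a median of 49 reads in the knockout and 130 in wild type.

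CNBP itself was still covered by footprints. The gene (ENSG00000169714, hg19, chromosome 3, 128888327 to 128902765, minus strand) had a density of 2.36 in the knockout, against 3.27 in wild type, with 74 and 198 reads. Its log2 ratio was -0.26 (interval -0.67 to 0.13), the same to 2 decimals as the median of all well-counted genes, -0.26. The sequence of the edit is not in the labels, and a level over the whole gene does not show small insertions or deletions, so it is a weak check of the label. Of 5 HEK293 markers with a usable value, the intermediate filament gene VIM had the highest density, 2.01 in the knockout and 3.95 in wild type. The others did not all fall with it. The keratin KRT8 had 1.01 in the knockout and 0.884 in wild type, KRT18 0.453 and 0.462, and INA 0.163 and 0.211. The neurofilament gene NEFM was listed at 0 in both. The summed level of the HEK293 markers was 3.64 in the knockout and 5.50 in wild type. The blood markers PTPRC and CD3E and the liver markers ALB and APOA1 were listed at 0 in both groups. The 3 epithelial markers summed to 2.13 in the knockout and 1.17 in wild type, with the keratin KRT19 at 1.45 and 0.405 on 38 and 20 reads; EPCAM was at 0.587 and 0.738 and CDH1 at 0.10 and 0.0317. Their part in the results was not tested.

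More well-counted genes were lower than higher in the knockout. At least 2-fold, 19 genes were higher (1.24% of 1532) and 119 were lower (7.77%), 2 of them because they are listed at 0. The counting interval lay wholly on the same side of 0 for all 19 and for the other 117. These genes were picked by the same ratios, so this adds little. The interval lay wholly beyond 2-fold for only 11 of the 19 and 34 of the 117. At 1.5-fold the counts were 69 higher and 394 lower. The lower quartile of all ratios was -0.60 and the upper quartile 0.05, and 71.7% of well-counted genes were below 0. The read minimum is set on the sum of both groups, and wild type held more of the reads. Genes high only in wild type therefore pass it more easily than genes high only in the knockout. With at least 30 reads the median of all genes kept was -0.12, and with at least 300 it was -0.37. The part of this filter in the excess of lower genes was not tested. The excess also depended on the scaling. Centred on the well-counted genes themselves the split was 38 higher and 67 lower, and scaled on summed reads without the 2 most abundant gene groups it was 120 higher and 43 lower. With 4 more genes of high wild-type reads left out of the sum, BMP8B, FLYWCH1, CDK6 and ARSI, it was 44 higher and 64 lower. The order of genes does not depend on the scaling, so groups are described below against the well-counted median of -0.26. At the threshold, MTRNR2L11 (1.045) and RGPD4 (-1.0) were the nearest genes inside, and MACF1 (0.997) and FTSJ3 (-0.999) the nearest outside.

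**Figure D1:**
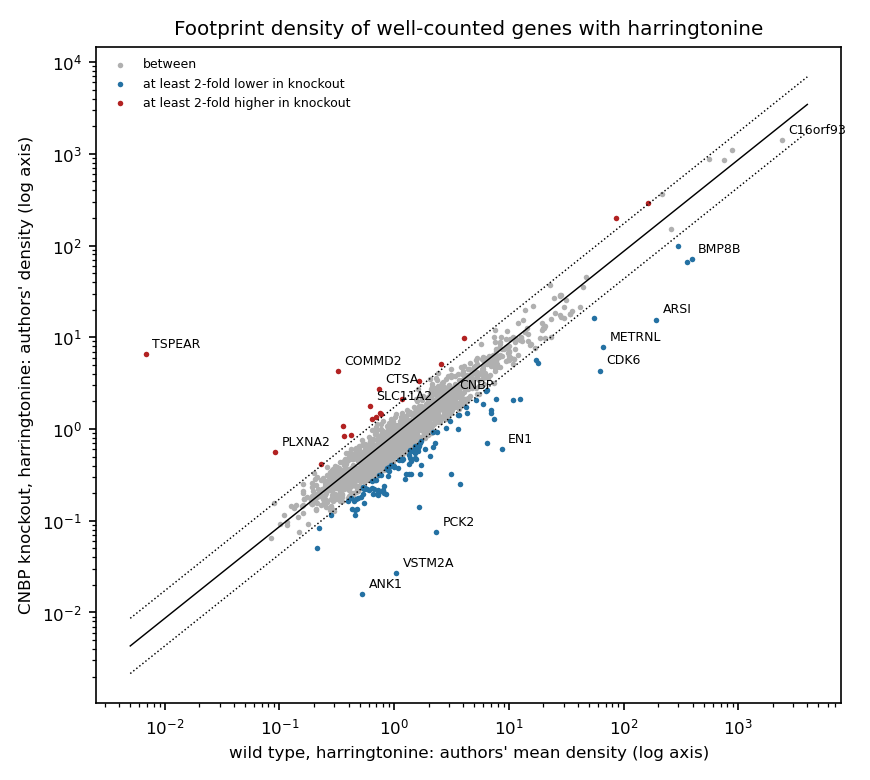
Deposited ribosome density of each well-counted gene with harringtonine, the knockout on the vertical and wild type on the horizontal log axis. The solid line is the centre and dotted lines mark 2-fold. The 119 lower genes include a group far below the line at high wild-type density (BMP8B, ARSI, METRNL and CDK6), and MT-CO1 and MT-CO2, listed at 0 in the knockout, are not drawn.

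The lowest ratios belonged to genes whose wild-type density with harringtonine was above that of the other 3 groups. CDK6, a kinase that drives cells out of G1 (chromosome 7, 92234235 to 92465908, minus strand), had 4.34 in the knockout, against 62.2 in wild type, a log2 ratio of -3.63 (interval -3.72 to -3.53). With cycloheximide it had 3.45 in the knockout and 2.07 in wild type. ARSI, a sulfatase of the arylsulfatase family, had 15.6 in the knockout and 193 in wild type with harringtonine, and 80.9 and 35.6 with cycloheximide. Its ratio was -3.42 with harringtonine. METRNL, a secreted factor related to meteorin, had 7.88 in the knockout, against 66.5 in wild type (-2.86), and METRN, meteorin itself, 2.06 against 10.9 (-2.19). For CDK6, METRNL and METRN, wild type with harringtonine stood above each other group, and with cycloheximide the knockout was the higher of the pair.

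BMP8B, a secreted ligand of the bone morphogenetic protein family (chromosome 1, 40222854 to 40254533, minus strand), and FLYWCH1, a zinc-finger gene (chromosome 16, 2961938 to 3001209, plus strand), carried the most reads of any lower gene. BMP8B had 70.6 in the knockout and 392 in wild type (-2.26, interval -2.30 to -2.23). FLYWCH1 had 65.4 in the knockout and 357 in wild type (-2.24). RAB12, a GTPase of membrane traffic, followed with 99.7 in the knockout and 299 in wild type (-1.37). BMP8B, FLYWCH1, CDK6 and ARSI, chosen after their values were seen, together took 3.67% of all reads in the knockout with harringtonine, against 16.3% in wild type. With cycloheximide these shares were 4.50% in the knockout and 2.46% in wild type. The wild-type mean over 3 libraries does not show whether 1 of them carries such a value.

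Some developmental transcription factors were among the lowest genes, while as a list they lay near the median of all. EN1, an engrailed homeobox factor, had 0.604 in the knockout and 8.68 in wild type (-3.63, interval -4.24 to -3.10), and its paralog EN2 had 0.327 and 1.39 (-1.88). IRX2, of the Iroquois homeobox family, was -2.33, from 2.12 in the knockout and 12.4 in wild type. TFCP2L1, a transcription factor of the grainyhead family and in none of the lists, had 1.29 and 7.39 (-2.31), and HOXD13, a posterior HOX gene, 0.637 and 2.17 (-1.56). The homeobox and related list held 12 well-counted genes of 120 in the table, with 7 of the 12 below the median of all well-counted genes and a list median of -0.31. Of these, 4 were at least 2-fold lower and 1 higher, where 7.77% and 1.24% of all well-counted genes were. SOX4, FOXK1 and SOX12 were -0.09, 0.15 and 0.24. The 2-fold higher one was TFAP2B, an AP-2 factor, at 0.868 in the knockout and 0.421 in wild type (1.25, interval 0.82 to 1.68).

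The 3 lowest ratios of all rested on very few knockout reads. VSTM2A, an immunoglobulin-domain gene, had 0.0271 in the knockout and 1.05 in wild type (-5.06, interval -7.93 to -2.98), with 2 and 130 reads. ANK1, an ankyrin that ties the membrane to the spectrin skeleton, had 3 and 161 reads (-4.84). PCK2, the mitochondrial PEP carboxykinase, had 4 and 211 reads (-4.73, interval -6.45 to -3.19). RRAGC, a GTPase that brings mTORC1 to the lysosome, had 7 knockout and 164 wild-type reads (-3.35). CYHR1 (-3.66), the glycogen-targeting phosphatase subunit PPP1R3E (-2.99) and the NuRD subunit GATAD2A (-3.06) had 30 to 63 reads in the knockout. The cell adhesion gene DSCAM (-1.91), FBRSL1 (-1.56) and the fibrillarin-like gene FBLL1 (-1.55) completed the best-counted lower genes.

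**Figure D2:**
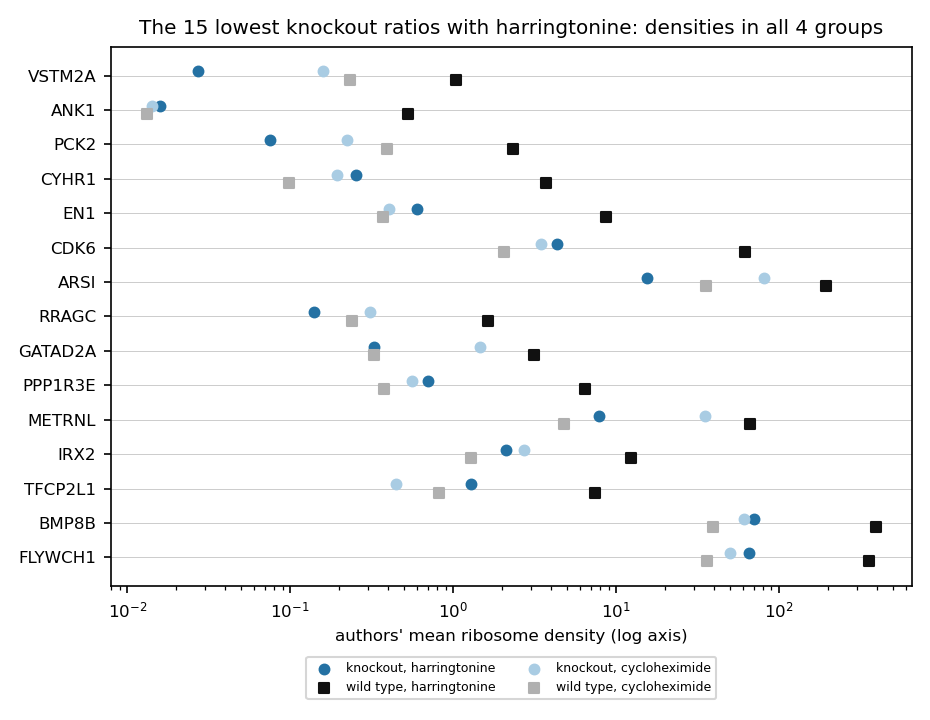
Authors' mean density, on a log axis, of the 15 genes with the lowest knockout ratio with harringtonine, lowest at the top. Each point is 1 deposited group mean. For each of the 15, wild type with harringtonine is the highest of the 4 points, which picking genes by this ratio favours.

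On the higher side, TSPEAR, a gene tied to tooth and hair development, stood apart (chromosome 21, 45917775 to 46131495, minus strand). It had a density of 6.50 in the knockout with 489 reads, against 0.00680 in wild type with 1 read. Its log2 ratio of 10.11 (interval 7.60 to 15.40) is therefore poorly bounded from above. With cycloheximide it had 1.54 in the knockout and 0.888 in wild type. Wild type with harringtonine was thus the low group for TSPEAR.

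COMMD2, of a family that acts in endosomal recycling of membrane proteins, had 4.30 in the knockout and 0.326 in wild type (3.93, interval 3.47 to 4.43). The axon guidance receptor PLXNA2 had 0.563 and 0.0915 (2.83), while with cycloheximide its ratio was -0.12. CTSA, a lysosomal carboxypeptidase that protects 2 other hydrolases, had 2.73 in the knockout and 0.733 in wild type (2.11, interval 1.71 to 2.50). COTL1, an F-actin binding protein, was 1.80, the endosomal iron transporter SLC11A2 1.75 and the zinc-finger gene ZKSCAN1 1.41. LTA4H, which makes leukotriene B4, was 1.23 on 385 knockout and 366 wild-type reads. CDK5R1, the activator of CDK5, was 1.20, the nuclear import receptor TNPO2 1.17, the ribosomal protein gene RPS27 1.20 and COX7B, of cytochrome c oxidase, 1.19. PTPN3 (1.07), the proteasome assembly factor POMP (1.08) and YY1AP1 (1.15), named here to complete the count, were also past 2-fold. MTRNR2L5, MTRNR2L9 and MTRNR2L11 made up the remaining 3 and are near-identical copies whose reads cannot be assigned with certainty. Among the lower genes the same holds for RGPD1 (-1.22), RGPD2 (-1.22), RGPD3 (-1.02), RGPD4 (-1.0) and RGPD8 (-1.23), and for HNRNPCL1 (-2.03).

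The cycloheximide values come from separate libraries. MT-CO1 and MT-CO2, listed at 0 in the knockout with harringtonine, are left out of the counts over both treatments. Their cycloheximide ratios were -2.20 and -2.95. Of the 1525 other genes well counted with both treatments, 36 were at least 2-fold higher in the knockout with cycloheximide (2.36%) and 29 lower (1.9%). Of the 19 genes higher with harringtonine, 9 were also 2-fold higher with cycloheximide, which is 47.4% of the first list and 25% of the second, and 0 were 2-fold lower. These were COMMD2, CTSA, COTL1, SLC11A2, ZKSCAN1, TFAP2B, CDK5R1, TSPEAR and MTRNR2L9. TFAP2B had a cycloheximide ratio of 2.53, COMMD2 of 2.60 and CTSA of 1.69.

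Without MT-CO1 and MT-CO2, 112 of the lower genes were well counted with both treatments. Of these, 2 (1.79%) were 2-fold lower with cycloheximide, near the 1.9% of all 1525 genes. Another 12 were 2-fold higher there. The 2 were NDUFS7, a core subunit of complex I, with -1.65 and -1.15, and TSFM, a mitochondrial elongation factor, with -1.47 and -1.27 (the harringtonine ratio, then the cycloheximide ratio). The 12 make up 10.7% of these 112 genes, where 2.36% of all 1525 were 2-fold higher with cycloheximide. The 12 are also 33.3% of the genes 2-fold higher with cycloheximide. They were METRNL (cycloheximide ratio 3.24), GATAD2A (2.54), METRN (1.76), ARSI (1.55), IRX2 (1.45), CYHR1 (1.33) and CDK6 (1.11), with NKX6-2 (1.02), MLLT1 (2.21), WBSCR17 (3.58), KCNA7 (1.07) and LRRTM1 (1.12). In GATAD2A the knockout had 0.326 and wild type 3.14 with harringtonine, whereas the knockout had 1.47 and wild type 0.325 with cycloheximide. WBSCR17, a GalNAc-transferase, had 0.217 in the knockout and 0.609 in wild type with harringtonine, and 3.81 and 0.410 with cycloheximide. Whether the 2 treatments differ beyond the spread between cultures was not tested, since no value per library was used.

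**Figure D3:**
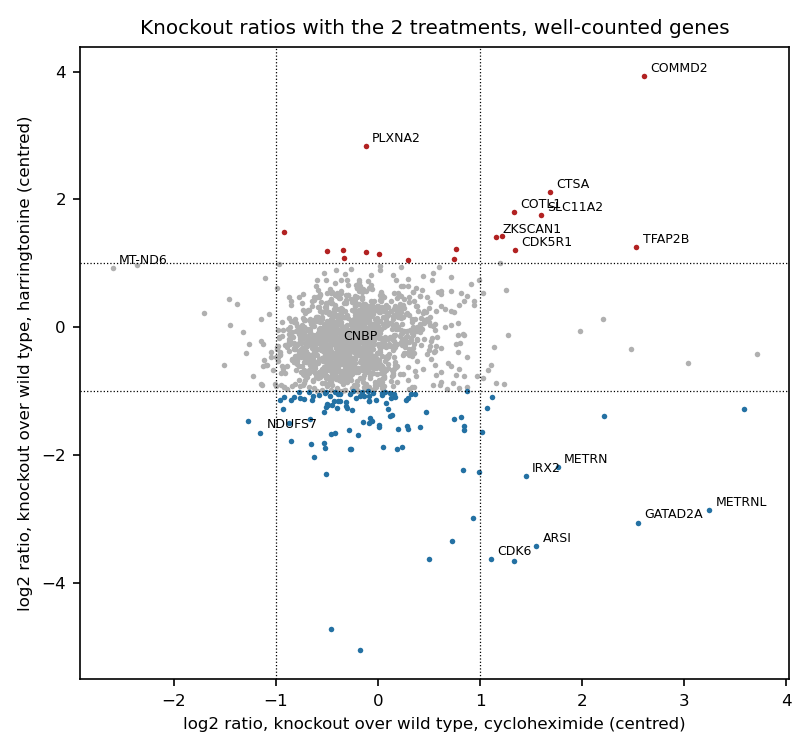
Centred log2 ratio of knockout over wild type with harringtonine (vertical) and with cycloheximide (horizontal), 1 point per gene well counted with both. Dotted lines mark 2-fold. COMMD2, CTSA and TFAP2B are high on both axes, whereas METRNL, GATAD2A and ARSI are at the lower right. TSPEAR (10.11 and 1.16) is off the scale and not drawn.

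Gene families were described by how many members lay below the well-counted median, a count that no rescaling moves, and 50.0% of all well-counted genes lie there by definition. Of 62 lists, 46 had at least 5 well-counted members. Their medians were below -0.26 for 27 and above it for 19. No family was tested against the others.

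Most genes for proteins that build ribosomes in the nucleolus lay below the well-counted median. Of 24 well-counted genes of the small-subunit processome and 40S maturation (46 in the table), 18 were below the well-counted median, with a list median of -0.44. Of the 24, 2 were at least 2-fold lower, a share near the 7.77% of all well-counted genes. RRP12, needed for export and maturation of pre-ribosomes, had 0.194 in the knockout and 0.709 in wild type (-1.66, interval -2.53 to -0.92), and the processome subunits PWP2 and TBL3 were -1.01 and -0.97. In 60S maturation 18 of 28 were below, with a median of -0.42 and 4 at least 2-fold lower, beside 7.77% of all. LAS1L, which cuts pre-rRNA between the 5.8S and 28S parts, was -1.84, the helicase DDX54 -1.68 and PELP1, of the same complex as LAS1L, -1.42. The snoRNP and nucleolar scaffold genes had 9 of 11 below (median -0.42). Among them the pseudouridine synthase DKC1 was -1.28, from 0.482 in the knockout and 1.36 in wild type, nucleolin NCL -0.997 (3.21 and 7.42) and NPM1 -0.42 on 440 and 1309 reads. Of the 5 well-counted genes of RNA polymerases I and III and their factors 3 were below the median and 2 above it, with GTF3C1 at -0.97 and UBTF at -0.13. With cycloheximide the medians of the first 3 lists were -0.40, -0.36 and -0.34, where all well-counted genes had a median of -0.28, which is also the value to set beside the cycloheximide medians of the lists that follow.

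Ribosomal protein genes lay higher than the factors that assemble them. For the small subunit 20 of 29 were above the well-counted median, which gave a list median of 0.03, and for the large subunit 30 of 44, with a median of -0.12. RPS27 was the highest (5.09 in the knockout and 2.56 in wild type, 1.20) and RPS10 the lowest (1.89 and 5.97, -1.45, interval -2.08 to -0.86). No large-subunit gene was past 2-fold. The low ones included RPLP1 of the stalk (-0.75), RPL8 (-0.69), RPL13 (-0.67) and RPL3 (-0.51), and with cycloheximide the small- and large-subunit lists had medians of -0.28 and -0.27. Many of these genes have processed copies, so single values are uncertain. The deposited TE value, used in place of the density ratio, gave medians of -0.17 and -0.26, so the small-subunit median changed sign.

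Initiation and elongation factors were spread around the well-counted median. Of 13 eIF3 subunits 7 were below, from EIF3D at -0.82 and EIF3A at -0.72 (1.77 in the knockout and 3.39 in wild type) to EIF3M at 0.58. In the eIF4 group EIF4B, which assists the helicase eIF4A, was -1.05, the scaffold EIF4G1 -0.95 (1.65 and 3.69) and PABPC4 -0.71, while 6 of 10 were above. The eIF2 subunits EIF2S1, EIF2S3 and EIF2S2 were -0.46, 0.14 and 0.33, each with an interval that included 0. The start-codon factors EIF1 and EIF1AX were 0.07 and 0.37, whereas EIF5B, which joins the subunits, was -0.64 and the recycling factor ABCE1 -0.58. Among elongation factors EEF2, which moves the ribosome along the mRNA, had 10.1 in the knockout and 23.3 in wild type (-0.999, interval -1.13 to -0.87). EEF1A1, which brings in aminoacyl-tRNA, was -0.66 (19.4 and 35.5), EIF5A 0.20 and EEF1B2 0.25. The aminoacyl-tRNA synthetases had 9 of 17 below, the methionyl enzyme MARS the lowest at -1.08 and the aspartyl enzyme DARS the highest at 0.77.

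Among integrated stress response genes, which cells translate or induce when eIF2 is phosphorylated, 8 of 29 were well counted and 4 of them below the median. Apart from PCK2, the serine synthesis enzymes PHGDH and PSAT1 were -0.46 and 0.13, asparagine synthetase ASNS -0.05, SHMT2 -0.26 and MTHFD2, a mitochondrial folate enzyme, 0.74 (interval 0.32 to 1.16). With cycloheximide PSAT1 was -1.14, ASNS -0.93 and MTHFD2 -0.51. MYC, the growth factor-driven regulator often named as a CNBP target, had 1.21 in the knockout and 1.67 in wild type (-0.25, interval -0.73 to 0.21), beside -0.71 with cycloheximide.

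Proteins that bind or unwind RNA were mostly low. In the hnRNP family 14 of 20 were below the well-counted median, with a list median of -0.45. HNRNPU, a nuclear scaffold protein, had 2.59 in the knockout and 6.30 in wild type (-1.07, interval -1.26 to -0.89), HNRNPA3 was -0.93 and HNRNPA2B1 -0.57 on 680 and 2243 reads. Other binders of G-rich RNA or G-quadruplexes had 14 of 17 below and a median of -0.46. Those below included SERBP1 (-0.69), EWSR1 (-0.68) and NCL, counted above as well. The targeted gene CNBP is another of the 14, at -0.262 beside a well-counted median of -0.258. Of DEAD-box helicases 11 of 14 were below (median -0.44), but 5 of the 14, DDX54, DDX27, DDX56, DDX24 and DDX18, are also among the 60S maturation genes counted above. The others include DDX21, a nucleolar helicase, at -0.71 and DDX5 at -0.49. The 3 well-counted DEAH-box genes DHX30, DHX9 and DHX15 were -1.50, -0.78 and -0.39.

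Splicing genes were split. Of the Sm, LSm and snRNP proteins 16 of 26 were below, with PRPF6, a bridge within the tri-snRNP, at -1.82 (0.503 in the knockout and 2.05 in wild type), SNRNP70 of U1 at -1.48 and LSM4 at -0.71, while SNRPE was the highest at 0.98. The 6 SR proteins ran from SRSF9 at -0.61 to SRSF3 at 0.07. Methyltransferases of tRNA and rRNA had FTSJ3 at -0.999 and NOP2 at -0.64 lowest, both also 60S maturation genes, and METTL2B at 0.25 highest.

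The mitochondrially encoded proteins, read by the ribosome of the organelle itself, gave 6 genes above the median and 2 listed at 0 in the knockout. MT-ND6 had 37.6 in the knockout and 22.9 in wild type (0.93, interval 0.73 to 1.13), beside -2.60 with cycloheximide. MT-CYB was 0.84, MT-ND5 0.79, MT-ND4 and MT-ATP6 each 0.74 and MT-CO3 0.32. MT-CO1, a cytochrome c oxidase subunit, is listed at 0 in the knockout and at 127 in wild type, and with cycloheximide at 12.7 and 75.3. MT-CO2, of the same enzyme, is listed at 0 in the knockout and at 10.1 in wild type, and with cycloheximide at 1.72 and 17.1. A 0 in this table can be a failed estimate, so no fold is given.

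Nuclear-encoded subunits of the respiratory chain also lay high for complexes II to V, while complex I was split. Of complexes II to V 21 of 27 were above the well-counted median, with a list median of 0.10, against -0.40 with cycloheximide. COX7B had 1.48 in the knockout and 0.753 in wild type, COX7C was 0.54 and ATP5F1, of the ATP synthase stalk, 0.48. The 6 below it were CYC1, the cytochrome c1 subunit, at -1.89 (0.401 and 1.72, interval -2.80 to -1.08), and UQCRC2, SDHA, UQCRQ, ATP5O and UQCRC1, from -0.67 to -0.26. Complex I had 6 of 11 above, from NDUFS7 at -1.65 (2.13 and 7.75) to NDUFS5 at 0.90 (12.1 and 7.53). Import and chaperone genes had 7 of 12 below, with the chaperonin HSPD1 at -0.72 and the pore VDAC1 at -0.53. The carriers ran from the citrate carrier SLC25A1 at -1.14 to SLC25A45 at 0.22. Mitochondrial ribosomal proteins were mostly under 100 reads, and of the 7 well counted MRPL28 was lowest (-0.71) and MRPS34 highest (0.26).

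Glycolysis had the lowest median of the lists with at least 9 well-counted members, -0.55, with 12 of 15 below the well-counted median. Among lists with at least 5, the 7 tubulins had a lower median, -0.63. ENO1 had 17.9 in the knockout and 34.1 in wild type (-0.71, interval -0.83 to -0.60), GAPDH 16.7 and 28.2 (-0.55), ALDOA was -0.70 and PKM -0.65. With cycloheximide the list median was -0.42. The pentose phosphate and TCA enzymes PGD, IDH3B and TKT were -0.83, -0.85 and -0.58, and PDHB 0.54. In lipid synthesis FASN, the fatty acid synthase, was -1.05 (1.75 and 4.21), ACLY -0.48 and IDI1 0.82, with 6 of 9 above the median. In nucleotide synthesis NME1 was -1.24, PFAS -0.92 and ATIC -0.88.

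Protein folding and degradation genes divided by complex. The CCT chaperonin and prefoldin had 8 of 9 below, such as CCT7 (-0.77) and CCT5 (-0.62, from 4.24 in the knockout and 7.56 in wild type). Cytosolic heat-shock proteins had 8 of 10 below, with HSPA8 at -0.93 (7.63 and 16.9), HSP90AB1 at -0.48 and the kinase co-chaperone CDC37 at -1.26. The 19S proteasome regulator had 9 of 13 below (median -0.41, PSMC5 -0.92 and PSMD1 -0.92), whereas the 20S core had 7 of 9 above (median -0.03, PSMB7 0.38). With cycloheximide the 20S core had the lower median of the pair, -0.59 beside -0.36. Chaperones of the endoplasmic reticulum had 8 of 13 above, PDIA4 being lowest at -0.998. Besides CTSA, the lysosomal genes included the galactosidase GLA at 0.50 and LAMP1 at -0.63. COPA (-0.97) and ARCN1 (-0.79), of the COPI coat, were the lowest of the vesicle list.

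Cell cycle genes were spread on both sides of the median. The cyclins CCNB1, CCND2, CCNG1 and CCNA2 were -0.13, -0.16, -0.16 and 0.29, and CDK1, the mitotic kinase, 0.66, beside CDK6 and CDK5R1, given above. Replication proteins had 8 of 17 below, with the flap nuclease FEN1 at -1.16, the single-strand binding RPA1 at -1.14 and MCM3 at -0.83. Mitotic genes had CDC25B at -0.90 and PLK1 at -0.64, and the kinesins KIF4A at -0.96 and KIF2C at 0.82. Of 7 tubulins 5 were below the median, TUBB4B lowest at -0.90 (5.08 in the knockout and 10.9 in wild type) and TUBA1C highest at -0.12. Of 15 actin genes 8 were above the median. The motor MYH9 was -0.98, ACTN4 -0.91 and ACTG1 -0.48, while ACTB was 0.11, CAPZA1 0.64 and COTL1 1.80.

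Histones were on the high side of the comparison. Of 23 well-counted histone genes 20 were above the median, and the list median was 0.22. HIST1H2BD had 19.9 in the knockout and 14.0 in wild type (0.72, interval 0.50 to 0.94), HIST1H2BJ was 0.65 and HIST2H2BE 0.47, while HIST1H2AG was -0.51. Their sequences are alike, and 19 of the 50 listed histone genes were set aside, so single genes are uncertain. Chromatin remodellers lay lower, 13 of 18 below with a median of -0.50, including MBD3 (-0.86) and CHD3 (-0.73) of NuRD besides GATAD2A, while RBBP4 was 0.61. RNA polymerase II and general factors had a median of -0.39, with SUPT16H at -0.82 and the large subunit POLR2A at -0.59. Of 501 ZNF genes only 15 were well counted, from ZNF532 at -1.60 and ZNF219 at -1.34 (1.49 and 4.35) to ZNF146 at 0.75 and ZNF326 at 0.84.

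Few signalling genes reached 100 reads. FGFRL1, an FGF receptor without a kinase, was -0.48 on 865 knockout and 2689 wild-type reads, and BMPR1A 0.50. The p53 regulator MDM2 was 0.54, PMAIP1 -0.16, and the MHC light chain B2M, the only interferon-stimulated gene well counted, 0.70 (interval 0.11 to 1.25). Amino acid transporters ran from SLC7A1 at -0.44 to SLC3A2 at 0.19, and the transferrin receptor TFRC was -0.11. The immediate-early factor JUN was -0.06, the keratin KRT8 0.41, COMMD4 0.05 and RAB7A 0.20.

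**Figure D4:**
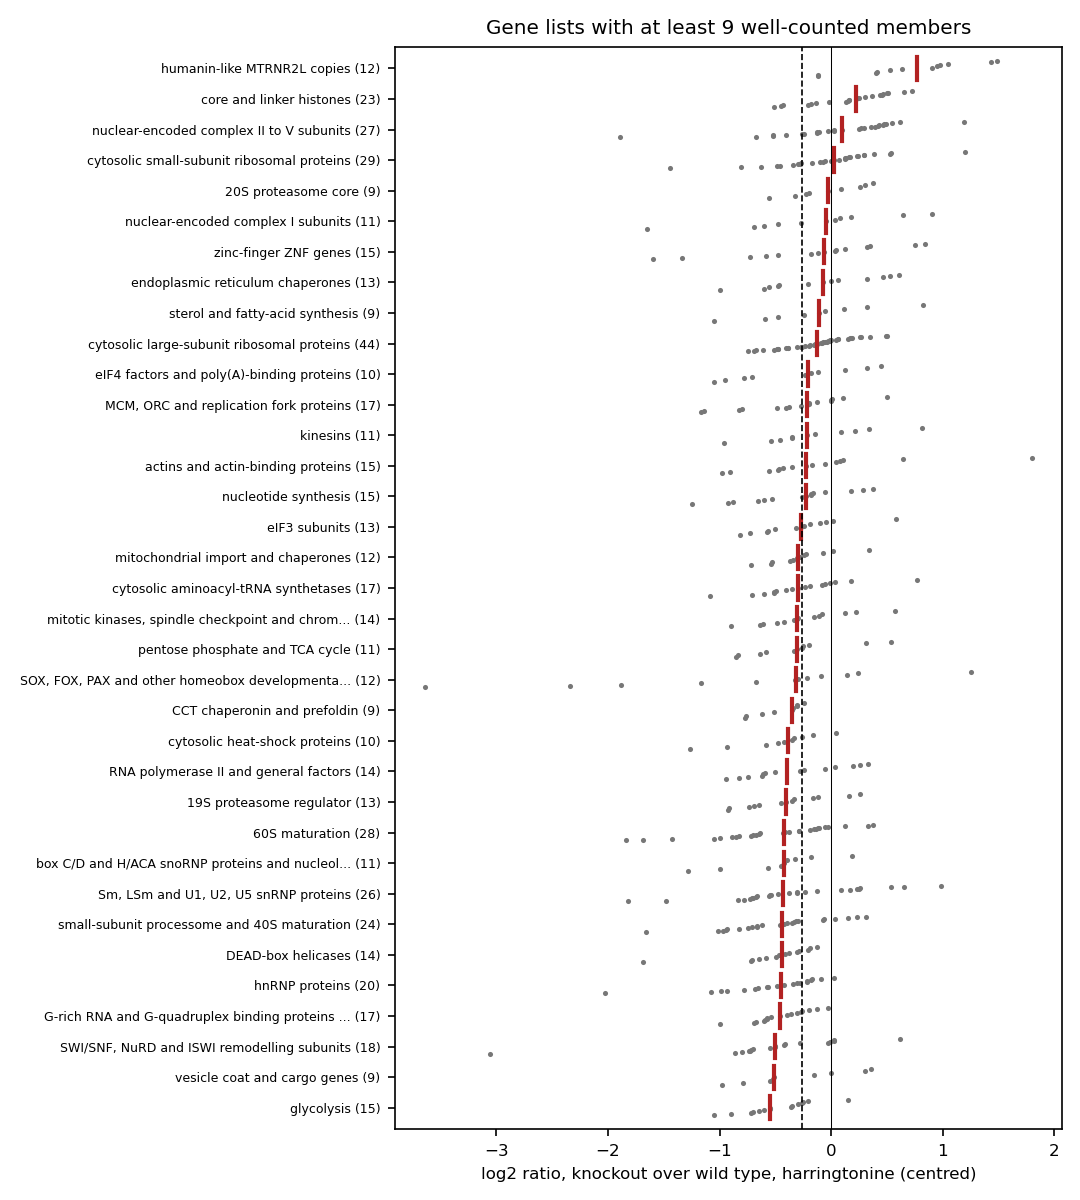
Centred log2 ratio of knockout over wild type with harringtonine for each well-counted gene (grey points) of the lists with at least 9 of them. Red bars are list medians, numbers in brackets are genes, and the dashed line is the well-counted median of -0.26. Histones, complexes II to V and ribosomal proteins lie above the line, and hnRNPs, ribosome assembly factors and glycolysis below it.

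The humanin-like MTRNR2L copies, segments like mitochondrial 16S rRNA, and C16orf93 carried a large share of reads. All 12 copies were above the well-counted median (list median 0.77), and they took 22.7% of reads in the knockout and 11.1% in wild type. MTRNR2L12 had 1094 in the knockout and 877 in wild type (0.53). C16orf93 took 14.2% in the knockout and 16.5% in wild type (-0.56).

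Transcript length and footprint level moved with the ratio, and their part in the family medians was not tested. Split into 5 equal bins, the well-counted genes with the shortest listed transcripts (525 to 2064 bases) had a median of -0.13, the middle bin -0.35 and the longest (6333 to 29630 bases) -0.22. By footprint level the lowest bin had a median of -0.19 and the highest -0.38. Several lists on the high side were short, with a median length of 1614 bases for histones, 1526 for small-subunit ribosomal proteins and 1976 for complexes II to V. Short lists also lay low, with 2020 bases for tubulins (list median -0.63), 2189 for CCT and prefoldin (-0.35) and 1370 for mitochondrial large-subunit ribosomal proteins (-0.44). Among genes below the median footprint level, the shortest and longest bins had medians of -0.12 and -0.12, and above it -0.12 and -0.38. The hnRNP genes had a median of 3456 bases and the small-subunit processome 4240, against 3747 for all. The 2-fold lower genes had a median length of 3992 bases, against 3747 for all, and a median of 174 reads over both groups, against 178. Every well-counted gene has at least 100 such reads, and the sum does not show how few came from the knockout.

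**Figure D5:**
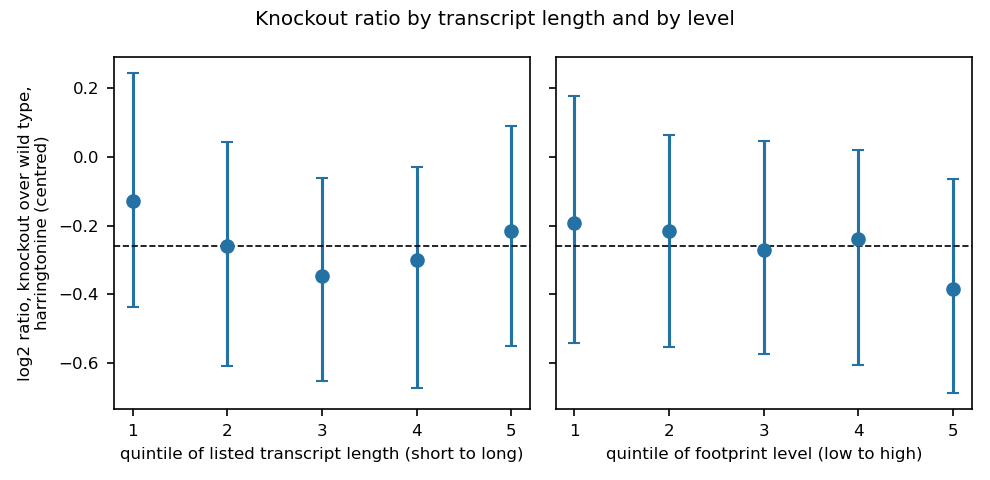
Median centred log2 ratio of knockout over wild type with harringtonine in 5 bins of the 1532 well-counted genes by listed transcript length (left) and by summed reads (right). Bars run from the lower to the upper quartile of the genes, and the dashed line is the median of all. The bin of shortest transcripts (-0.13) lies highest and that with the most reads (-0.38) lowest.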

How the data were processed

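Ribosome footprints were measured in HEK293 cells; TopHat and hg19 are named in the submitters' processing notes, while counting tool, annotation and unit are not given in the labels. The authors deposited 1 mean density per gene and group, a signal scaled to transcript length, in a table of 19219 genes; the knockout means are the same kind of value, entered as another unit because of 918 error cells. The authors' deposited LFC and TE columns, entered as a score, are log2 values of wild type over knockout. TE minus LFC was 1 number per gene, equal for both treatments in 12241 of 12241 rows, and the header does not expand TE. All signs here are turned to knockout over wild type.

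Left out were 918 rows without a knockout value, 290 on alternate sequences and 175 whose LFC differed from the means by over 1e-06 (some rows fall under several). Of the 18043 others, 12091 set the centres, -0.21 with harringtonine and -0.37 with cycloheximide. Estimated reads are density times listed length over the smallest recurring step of such products, averaged over 1 step per library; only 6.39% of low knockout values came out within 0.005 of a whole read, so reads and their Clopper-Pearson intervals are approximate and cover counting error only. A well-counted gene listed at 0 was counted as lower at a floor of 3 reads. The scripts were tested on simulated data and run in Python 3.11.15 with scipy 1.17.1.

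Members and gene lists were chosen with earlier results of these data known. The rule named CNBP, the 15 largest ratios each way, the 10 best-counted past 2-fold each way, up to 4 members per list (all of lists with 8 or fewer) and the genes past 2-fold with both treatments. Alternatives were other read minimums, scalings, an added read, and TE. Some items are not reported here.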

Additional observations from a re-analysis of the deposited data

How the results depend on the processing

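The counts beyond 2-fold moved with scaling and read minimum. They were 200 higher and 474 lower with at least 30 reads, 6 and 34 with at least 300, 11 and 218 without centring, and 38 and 67 centred on the well-counted genes. Scaling on summed reads without C16orf93 and MTRNR2L gave 120 and 43, and also without BMP8B, FLYWCH1, CDK6 and ARSI, an alternative chosen after seeing the data, 44 and 64. With 1 read added they were 16 and 163, and with TE, likewise chosen later, 26 and 139; 16 of the 19 higher and 102 of the lower genes kept their call with TE. CNBP was 0.28 with the first summed-read scaling. Lists with a median below 0, 41 of 46, were 27 centred on the well-counted genes, 2 and 27 with the summed-read scalings, and 13 of 16 with at least 300 reads. With 1 read added or with TE, 27 of 46 lists were below the well-counted median. The same 27 in each scaling was fixed in advance, since a scaling moves all ratios and their median alike. No named gene past 2-fold changed sign. For the scalings this was fixed in advance, since each adds a constant to every ratio that is too small to turn a gene past 2-fold. No paired analysis was possible because the columns hold group means, and for that reason leaving out replicates was not run. Depth limits single genes: the median interval was 1.00 wide in log2.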
